A study of Mus musculus with 4 samples.

Results

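Imprinted genes, which are read from the copy inherited from one parent and silenced on the other, were followed in forelimb buds of E11.5 mouse embryos with and without Smarcc1 in the limb mesenchyme. The genes were chosen by name from those known to be imprinted in the mouse, by a proposal written with the difference between knockout and control of these same libraries already known, Nap1l5 and Asb4 among the values in view. Of 42 genes named, 35 had values among the 35682 genes of the table. The other 7 (H19, Airn, Kcnq1ot1, Meg3, Rian, Mirg and Peg13, all non-coding RNA genes) were not analysed here. A level of at least 1 TPM (transcripts in 1000000, a measure scaled for transcript length and for the library total) in at least 2 libraries was reached by 31 genes, and these entered the test. Rtl1, Kcnq1, Ascl2 and Rasgrf1 did not reach it.

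Each of the 4 libraries came from the forelimb pair of 1 embryo. The 2 knockout embryos were PrxCre/+;Smarcc1c/c, and the 2 controls were Prx+/+;Smarcc1c/c, so that both groups carried the conditional Smarcc1 allele in 2 copies and differed in the Cre. PrxCre is a transgene driven by a Prrx1 limb enhancer and active in limb bud mesenchyme, while ectoderm, vessels and blood in the same bud keep the gene. Smarcc1 encodes BAF155, a scaffold protein of the BAF chromatin remodelling complex, and it stood at 46.2 and 38.4 TPM in knockout buds against 112 and 119.6 TPM in the controls. In each pair of values the library with 40 somites comes first and that with 39 somites second. Prrx1, a defining marker of limb mesenchyme, was present in all 4 libraries, at 130 and 140 TPM in knockout buds against 188 and 201 TPM in the controls. The read depth is unknown, and the precision rests on 2 embryos per genotype.

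Most imprinted genes lie in clusters, and in each cluster an imprinting control region carries DNA methylation on one parental copy. That mark is laid down in egg or sperm and kept through development, among others by the zinc finger protein ZFP57 with its partner TRIM28. Several clusters also make a long non-coding RNA that silences the neighbouring protein-coding genes on the same chromosome. Many of the genes act on fetal growth, with paternally expressed genes such as Igf2 often promoting it and maternally expressed genes such as Cdkn1c and Igf2r often restraining it. TPM values do not tell the 2 parental copies apart, so the allele named for each gene here is textbook background and was not measured. In bulk tissue, fewer cells of a type and less RNA per cell cannot be told apart.

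Nap1l5, Dlk1 and 29 other imprinted genes were compared between genotypes in a fit across all 12809 genes that passed the filter on low values. Nap1l5 and Dlk1 were higher in the knockout by limma with Benjamini-Hochberg adjustment over all genes at 0.05, which called 0.812% of all genes higher. None of the 31 was called lower, against 0.492% of all genes, and 4 were lower at an unadjusted p under 0.05. Since the choice of genes used this contrast, these counts describe the genes and nothing is read from them. At the same unadjusted level 6 of the 31 were higher, where 6.78% of all genes were higher and 6.89% lower. Both knockout libraries lay above both controls for 10 genes and below both for 8, while the groups overlapped for 13. Among all genes tested 22.7% lay above and 21.2% below in that way. The median log2 fold change of the 31 genes was 0.03, beside 0.01 over all genes. Each log2 fold change is knockout minus control on the scale of log2(TPM + 1), on which the change of a low gene looks smaller than it is.

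**Figure D1:**
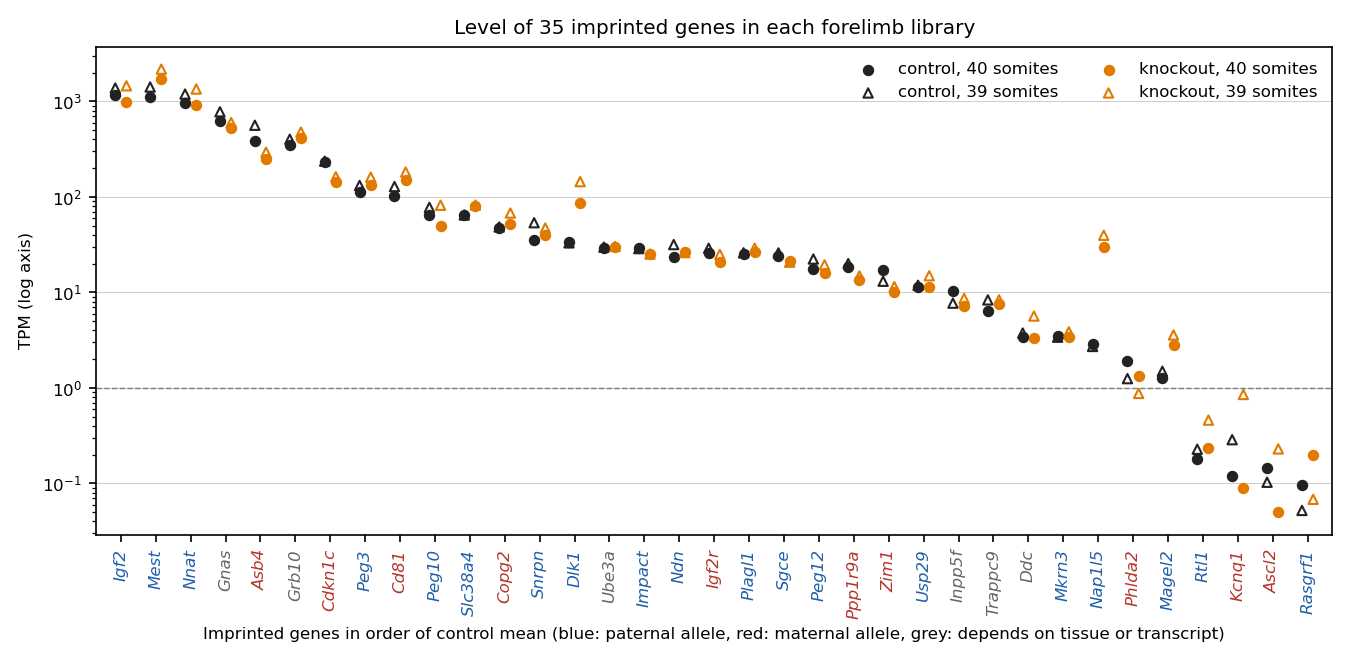
TPM of 35 imprinted genes on a log axis in each of the 4 libraries, in order of the control mean; black marks are controls and orange marks knockouts, circles 40 somites and triangles 39 somites. The control means run from over 1000 TPM for Igf2, Mest and Nnat to under 1 TPM for Rtl1, Kcnq1, Ascl2 and Rasgrf1, and the orange marks of Nap1l5 and Dlk1 stand clear above the black ones.

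Nap1l5 belongs to the nucleosome assembly protein family and is expressed from the paternal copy. The gene (ENSMUSG00000055430) lies on chromosome 6 of mm10, from 58905233 to 58907076 on the minus strand, and falls wholly within the span of Herc3, which runs on the plus strand from 58831465 to 58920398. It overlaps 0 annotated exons of Herc3. Its level was 30.1 and 39.6 TPM in knockout buds and 2.85 and 2.72 TPM in the controls. The 2 controls were nearly equal, and both knockouts stood far above them. The knockout mean was 12.5 times the control mean, and the log2 fold change was 3.23 ± 0.17 (SE, 2 libraries in each genotype; limma, Benjamini-Hochberg adjusted p = 0.00375). With no filter on low values the adjusted p was 0.116, in an unreliable fit that takes in genes listed at or near 0 and whose prior degrees of freedom were 0.646, against 4.16 with the filter. Over the 11 alternatives it ran from 9.07e-36 to 0.116, the lowest coming with knockout replicate 1 left out, where limma took the spread almost wholly from the trend over all genes.

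The host gene Herc3, which encodes a HECT-domain ubiquitin ligase, stood at 8.85 and 7.75 TPM in knockout buds against 6.49 and 8.24 TPM in the controls, and its groups overlapped. Fam13a, 25014 bases away, was at 1.88 and 1.88 TPM against 1.12 and 1.27 TPM. Its log2 fold change of 0.39 ± 0.16 did not pass over all genes (limma, Benjamini-Hochberg adjusted p = 0.366). Whether reads were counted by strand is not given in the sources used here, so reads from Nap1l5 and from unspliced Herc3 RNA on the opposite strand may not be told apart. Nap1l5 is best known from brain. The 6 neuronal markers summed to 10.1 and 10.1 TPM in knockout buds against 11.1 and 12.8 TPM, with Elavl3, Snap25 and Syt1 under 1 TPM in every library. The part of neurons in the difference of Nap1l5 was not tested.

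Dlk1, which encodes a transmembrane protein of the Notch ligand family found on progenitor cells, is expressed from the paternal copy. The gene (ENSMUSG00000040856) lies on chromosome 12 from 109452823 to 109463336, on the plus strand. It stood at 86.9 and 144 TPM in knockout buds against 33.6 and 33.0 TPM in the controls. The controls again lay close together, and the knockouts differed from each other as well as from the controls. The knockout mean was 3.47 times the control mean, with a log2 fold change of 1.72 ± 0.23 (SE, 2 libraries in each genotype; limma, Benjamini-Hochberg adjusted p = 0.0346). Within the stages the difference was 1.34 at 40 somites and 2.10 at 39. The call ended under median-ratio and quantile scaling (adjusted p of 0.0508 and 0.0608), with no filter on low values (0.541) and without control replicate 1 or 2 (0.0926 and 0.105). Over the 11 alternatives it ran from 2.94e-19 to 0.541, and the log2 fold change from 1.36 to 2.08.

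Rtl1, a retrotransposon-derived gene of the same cluster that is also expressed from the paternal copy, stayed under 0.5 TPM in all 4 libraries. It was at 0.234 and 0.459 TPM in knockout buds and 0.178 and 0.228 TPM in the controls, too low to enter the test. Begain, at the edge of the cluster, stood at 1.87 and 2.28 TPM against 2.55 and 2.89 TPM. Dio3, which encodes a thyroid hormone deiodinase, stood at 0.309 and 0.447 TPM against 0.571 and 0.338 TPM. Dio3, like Rtl1, was too low to enter the test, and Begain did not pass over all genes (limma, Benjamini-Hochberg adjusted p = 0.552). A difference in response between Dlk1 and the others was not tested. No other protein-coding gene with values lay within 100 kb of Dlk1. Dlk1 is also made by muscle precursors, and the 6 myoblast markers summed to 35.2 and 32.7 TPM in knockout buds against 29.8 and 22.4 TPM in the controls. Among them the groups were separated only for Myod1, at 5.80 and 4.13 TPM against 2.84 and 2.35 TPM. The part of muscle precursors in the difference of Dlk1 was not tested.

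The sequence before the start of each of the 2 genes that were called is shown as a description, and methylation was not measured. Both are RefSeq sequences of GRCm38.p6, the assembly that mm10 carries, and each runs 5′ to 3′ along the gene's own strand over the 250 bases before the RefSeq start. Capitals mark matches to TGCCGC, the 6 bases that ZFP57 binds when methylated, and to TATAAA, the core of the TATA box, each searched on both strands; GCCATNTT, the core motif of YY1, was searched as well. A match is a description of the letters and not a measured site. The Nap1l5 sequence is chr6:58907127-58907376 on the minus strand and that of Dlk1 chr12:109452573-109452822 on the plus strand.
Nap1l5: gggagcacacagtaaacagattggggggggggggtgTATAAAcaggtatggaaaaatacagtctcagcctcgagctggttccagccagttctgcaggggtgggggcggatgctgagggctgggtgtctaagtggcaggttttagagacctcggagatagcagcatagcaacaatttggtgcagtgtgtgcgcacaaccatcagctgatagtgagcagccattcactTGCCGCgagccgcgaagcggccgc
Dlk1: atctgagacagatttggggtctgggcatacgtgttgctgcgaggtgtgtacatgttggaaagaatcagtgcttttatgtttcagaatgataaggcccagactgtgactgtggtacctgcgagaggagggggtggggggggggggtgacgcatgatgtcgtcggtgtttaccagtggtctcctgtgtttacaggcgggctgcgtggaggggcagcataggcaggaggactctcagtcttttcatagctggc

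The Nap1l5 window of 300 bases, from 250 before to 50 after the start, held 17 CpG dinucleotides and 2 matches to TGCCGC. The first is shown above, and the second began at base 278 of the window, past the start. The TATAAA match of Nap1l5 began at base 37 of the window, far from where a TATA box works. The Dlk1 window held 9 CpG dinucleotides and none of the 3 motifs. Of the 42 genes 33 had at least 1 such window, 51 windows in all. TGCCGC was found in 21.6% of these against 11.6% of all 32851 windows, TATAAA in 23.5% against 13.6%, and GCCATNTT in 5.88% against 6.05%. Overlapping windows of the same gene are counted separately here, as for Mest with TGCCGC and Gnas with TATAAA. CpG-rich windows, with an observed-to-expected CpG ratio over 0.6 and a GC content over 50%, made up 43.1% of the windows of imprinted genes and 33.3% of all. Within CpG-rich windows TGCCGC was found in 36.4% of 22 against 25.3% of 10935. These shares are given without a test.

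In the Mest cluster on chromosome 6, all measured genes stood higher in the knockouts. Mest is a paternally expressed hydrolase-fold gene of embryonic mesoderm. In the knockouts it was the most abundant of the 35 imprinted genes with values. Its level there was 1703 and 2175 TPM, against 1116 and 1414 TPM in the controls. Both knockouts lay above both controls, and the log2 fold change was 0.61 ± 0.19. Copg2, which encodes a coatomer subunit, stood at 52.6 and 67.8 TPM against 47.8 and 48.3 TPM. The 3′ ends of Mest and Copg2 overlap by 912 bases on opposite strands, so some reads may belong to either. Neither passed over all genes (limma, Benjamini-Hochberg adjusted p = 0.232 and 0.435), while Mest was called with somite stage in the model (0.0413). Klf14, a maternally expressed Krüppel-like factor gene of this cluster that is outside the 42, rose to 3.35 and 4.05 TPM in knockout buds, with 0.118 and 0.151 TPM in the controls. Its log2 fold change was 2.05 ± 0.17 (SE, 2 libraries in each genotype; limma, Benjamini-Hochberg adjusted p = 0.0104), and it passed the filter on low values only through the knockouts, as its controls were far below 1 TPM.

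All 4 genes of the Peg10 cluster had log2 fold changes below 0, between -0.78 and -0.14. Asb4, a maternally expressed gene for an ankyrin repeat and SOCS box protein, stood at 250 and 294 TPM in knockout buds against 387 and 562 TPM in the controls. The groups did not overlap, and the control mean was 1.75 times the knockout mean (log2 fold change -0.78 ± 0.20; limma, Benjamini-Hochberg adjusted p = 0.162, and 0.0299 with somite stage in the model). Ppp1r9a, the maternally expressed gene of the actin-binding protein neurabin, stood at 13.4 and 14.9 TPM against 18.5 and 20.03 TPM (-0.42 ± 0.13). Peg10 and Sgce, both paternally expressed, start 99 bases apart on opposite strands. Sgce, which encodes epsilon-sarcoglycan, stood at 21.3 and 20.7 TPM against 24.1 and 25.9 TPM. Peg10, a retrotransposon-derived gene needed in the placenta, stood at 49.8 and 81.7 TPM against 64.2 and 77.7 TPM, and its groups overlapped although those of Sgce did not. Further out, Casd1 was at 49.5 and 73.5 TPM against 78.3 and 85.5 TPM, and Pon3 at 3.26 and 3.73 TPM against 4.94 and 5.05 TPM. Calcr, the calcitonin receptor gene, went the other way, with 1.36 and 1.67 TPM in knockout buds against 0.237 and 0.198 TPM (log2 fold change 1.04 ± 0.18, with controls below the filter; limma, Benjamini-Hochberg adjusted p = 0.0612, and 0.0474 with somite stage in the model).

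**Figure D2:**
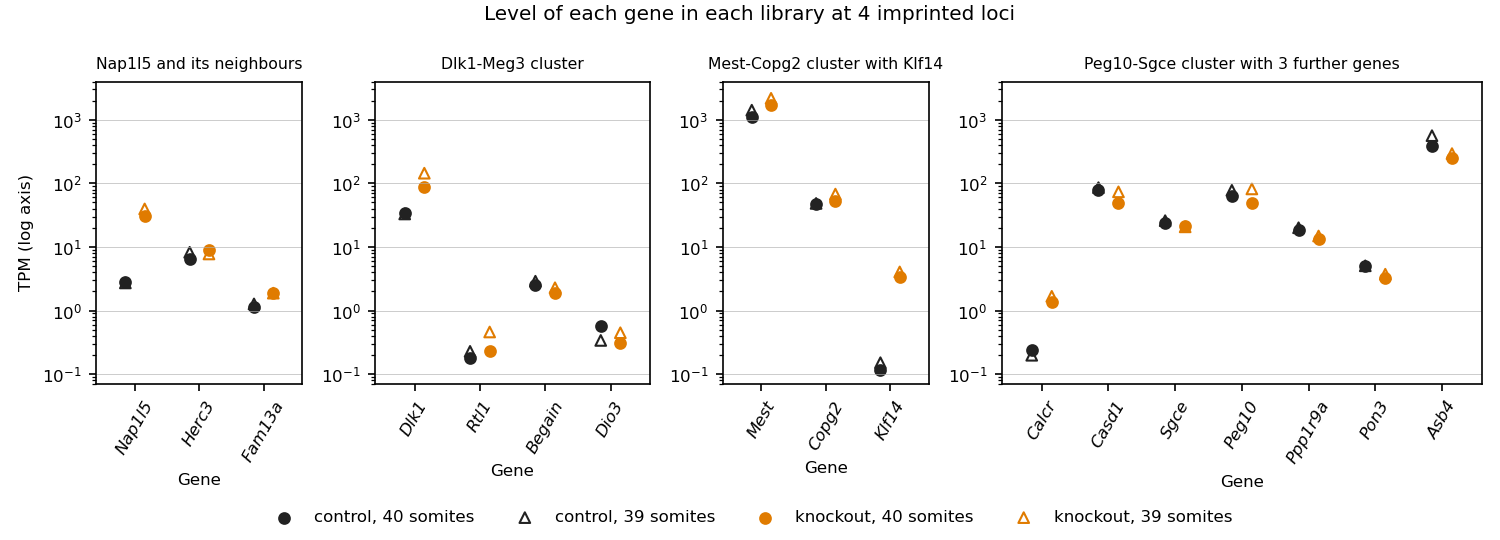
TPM on a log axis in each library for genes at 4 imprinted loci; black marks are controls and orange marks knockouts, circles 40 somites and triangles 39 somites. Nap1l5 is separated between genotypes while its host Herc3 is not; Dlk1, Klf14 and Calcr stand higher in the knockouts, and Asb4 stands lower.

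In the Kcnq1ot1 cluster of chromosome 7 the members differed in direction. Cdkn1c, the maternally expressed gene of the cell cycle inhibitor p57, stood at 143 and 162 TPM in knockout buds against 232 and 236 TPM in the controls. The control mean was 1.54 times the knockout mean, with narrow spreads on both sides, and the log2 fold change was -0.62 ± 0.11 (SE, 2 libraries in each genotype; limma, Benjamini-Hochberg adjusted p = 0.0794, and 0.0283 with somite stage in the model). Cd81, a tetraspanin gene imprinted mainly in placenta, stood at 149 and 182 TPM against 103 and 128 TPM (0.51 ± 0.16; limma, Benjamini-Hochberg adjusted p = 0.227, and 0.0299 with somite stage in the model). Phlda2, a placental growth restrainer, was near the filter, at 1.33 and 0.874 TPM against 1.899 and 1.25 TPM. Kcnq1, a potassium channel gene, and Ascl2, a basic helix-loop-helix factor gene of the placenta, stayed below 1 TPM throughout. Kcnq1 was at 0.852 TPM in the knockout with 39 somites and between 0.0891 and 0.287 TPM in the other libraries. The antisense gene Kcnq1ot1 lies within it, and without known strand the 2 may share reads.

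The genes of the IGF axis showed small differences. Igf2, the paternally expressed fetal growth factor, stood at 989 and 1456 TPM in knockout buds and 1179 and 1380 TPM in the controls. Its groups overlapped, with a log2 fold change of -0.09 ± 0.21 and a 95% interval from -0.60 to 0.42. Igf2r, the maternally expressed receptor that clears IGF2, stood at 20.6 and 25.0 TPM against 25.97 and 29.0 TPM (-0.26 ± 0.14). The antisense gene Airn overlaps the start of Igf2r, and the 2 may share reads. Grb10, an adaptor that dampens insulin and IGF receptor signalling and whose expressed allele depends on tissue, stood at 418 and 477 TPM against 349 and 401 TPM (0.25 ± 0.13). Plagl1, a zinc finger factor known to act on Igf2 and other imprinted genes, stood at 26.7 and 29.0 TPM against 25.1 and 25.9 TPM (0.12 ± 0.11). None of these 4 passed over all genes, with limma's Benjamini-Hochberg adjusted p between 0.483 and 0.915. Ddc, next to Grb10, encodes aromatic amino acid decarboxylase and stood at 3.34 and 5.65 TPM against 3.39 and 3.75 TPM.

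In the Peg3 cluster the paternal genes and the maternal gene lay on opposite sides of 0. Peg3, a zinc finger gene, stood at 135 and 161 TPM in knockout buds against 112 and 132 TPM in the controls (log2 fold change 0.28 ± 0.14). Usp29, a ubiquitin protease gene whose annotated start is 147 bases from that of Peg3 on the opposite strand, stood at 11.3 and 14.9 TPM against 11.3 and 11.9 TPM. Zim1, the maternally expressed zinc finger gene, stood at 10.2 and 11.48 TPM against 17.2 and 13.1 TPM (-0.44 ± 0.17; limma, Benjamini-Hochberg adjusted p = 0.321). Only the Peg3 and Zim1 groups were separated, and the 3 genes were not called.

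Of the 6 genes in the Snrpn to Ube3a domain, the region of the human Prader-Willi and Angelman syndromes, Magel2 had the largest difference. Magel2, a paternally expressed gene of the MAGE family, stood at 2.83 and 3.58 TPM in knockout buds against 1.26 and 1.49 TPM in the controls. The knockout mean was 2.32 times the control mean, with a log2 fold change of 0.82 ± 0.17 (limma, Benjamini-Hochberg adjusted p = 0.109). Its neighbours had overlapping groups. Ndn, which encodes the related protein necdin, stood at 26.3 and 26.1 TPM against 23.3 and 31.7 TPM. Mkrn3, a RING finger gene, stood at 3.42 and 3.86 TPM against 3.52 and 3.39 TPM, and Peg12, a Frat family gene, at 16.1 and 19.4 TPM against 17.7 and 22.3 TPM. Snrpn, which encodes a splicing protein and shares transcripts with Snurf, stood at 40.3 and 47.1 TPM against 34.9 and 53.6 TPM. The ubiquitin ligase gene Ube3a, imprinted in neurons, was the steadiest of the 6, at 29.8 and 30.3 TPM against 29.2 and 29.8 TPM, with a log2 fold change between -0.23 and 0.29 by its 95% interval.

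Among the genes that stand alone, Slc38a4, a paternally expressed amino acid transporter gene, was separated with close replicates, at 80.7 and 82.0 TPM in knockout buds against 63.9 and 64.6 TPM in the controls (log2 fold change 0.34 ± 0.10; limma, Benjamini-Hochberg adjusted p = 0.220). Gnas, which encodes the stimulatory G protein alpha subunit and further transcripts read from one or the other allele, stood at 531 and 600 TPM against 629 and 778 TPM. Impact, a regulator of translation, stood at 25.0 and 25.2 TPM against 29.1 and 28.8 TPM. Nnat, a membrane proteolipid gene, was abundant and overlapped, at 915 and 1347 TPM against 965 and 1192 TPM. Inpp5f, a phosphoinositide phosphatase gene, was at 7.21 and 8.63 TPM against 10.3 and 7.71 TPM, and Trappc9, a trafficking complex gene, at 7.51 and 8.34 TPM against 6.36 and 8.34 TPM. Rasgrf1, a Ras exchange factor gene imprinted in brain, was at or below 0.198 TPM in every library.

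**Figure D3:**
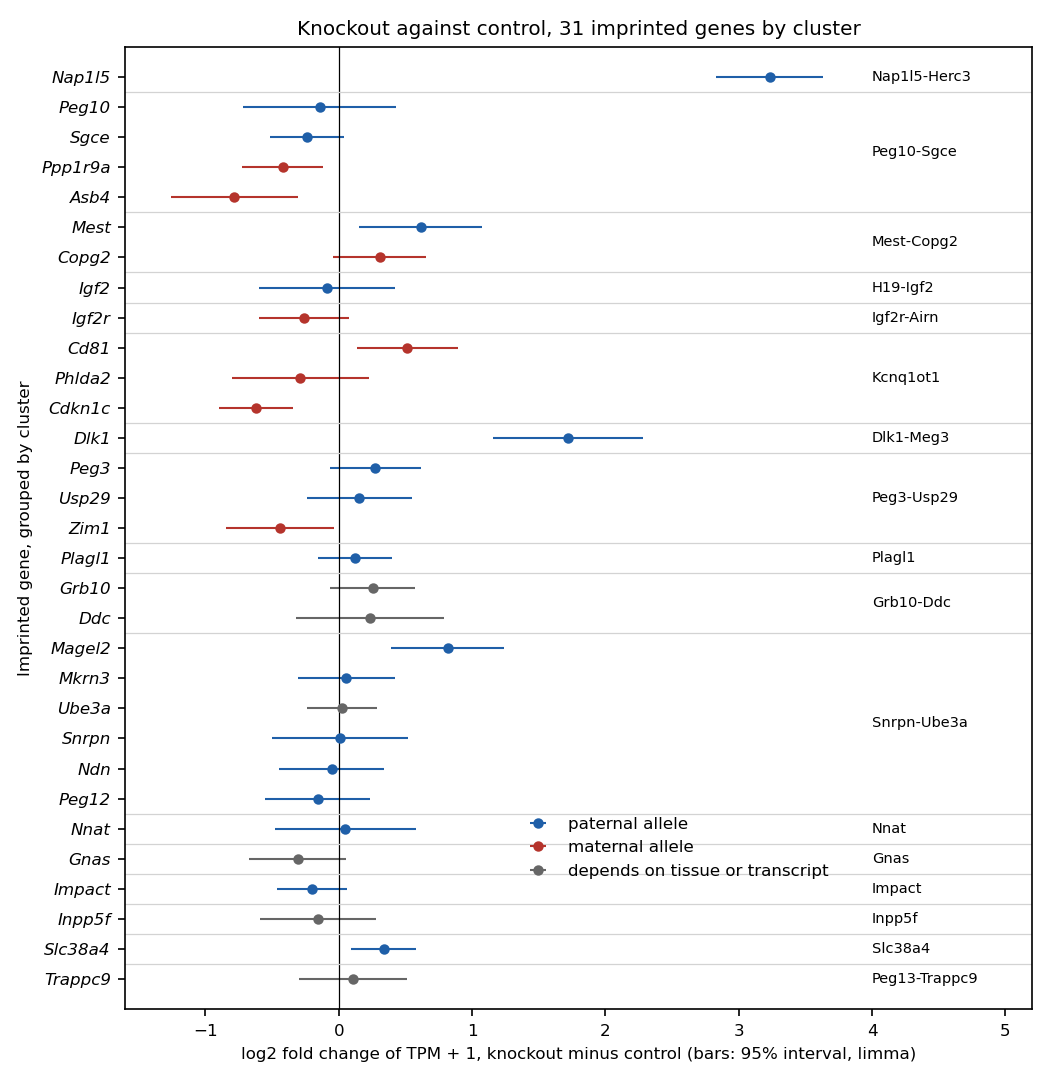
Log2 fold change of TPM + 1, knockout minus control, for 31 imprinted genes grouped by cluster, with 95% intervals from limma (n = 2 per genotype); blue marks paternally, red maternally expressed genes and grey those whose allele depends on tissue or transcript. Nap1l5 at 3.23 and Dlk1 at 1.72 lie apart, and the other genes lie between -0.78 and 0.82.

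By textbook parental origin, 17 tested genes were assigned to the paternal copy and 8 to the maternal copy. For 6 the copy depends on tissue or transcript. Cd81, imprinted mainly in placenta, is counted with the maternal genes, and the allele read in these buds was not measured. The median log2 fold change was 0.06 for the paternal genes, with 11 above 0 and 6 below. For the maternal genes it was -0.35, with 2 above 0 (Cd81 and Copg2) and 6 below. The genes with a variable allele had a median of 0.06. These medians cover only the tested genes of the 42. Klf14, maternally expressed and outside the 42, had a log2 fold change of 2.05, with controls far below 1 TPM. The other genes outside the 42 were not sorted by allele. At an unadjusted p under 0.05 the paternal genes had 5 higher (Nap1l5, Dlk1, Magel2, Mest and Slc38a4) and 0 lower, and the maternal genes 1 higher (Cd81) and 4 lower (Asb4, Cdkn1c, Ppp1r9a and Zim1). Over all genes 6.78% were higher and 6.89% lower at that level, and since the genes were chosen with this contrast known, nothing is read from the counts. The median of the maternal genes lay between -0.46 and -0.28 in all 11 alternatives. That of the paternal genes lay between -0.03 and 0.21, the lowest without knockout replicate 2 and the highest without knockout replicate 1. The alternatives reuse the same genes and libraries, so these ranges are no independent support. Genes of a cluster are regulated together, so they are not independent of each other, and the difference between the 2 origins was not tested.

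With somite stage in the model, 6 of the 31 genes were called. Nap1l5, Dlk1, Mest and Cd81 were higher, and Asb4 and Cdkn1c lower (limma, Benjamini-Hochberg adjusted p between 0.0073 and 0.0413). In that fit 2.08% of all genes were called higher and 2.08% lower. Each genotype holds 1 library of each stage, so the model leaves the fold changes as they were. The stage term changes the spread and the degrees of freedom that they are set against.

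Taken over all 35 genes with values, imprinted genes made up 0.580% and 0.757% of TPM in knockout buds and 0.557% and 0.677% in the controls. Mest, Igf2, Nnat and Gnas together held between 69.8% and 73.7% of that sum in each library. Among the tested genes 29.0% exceeded a control mean of 100 TPM, against 11.1% of all tested genes. The library with 39 somites had the larger share in both genotypes, and these differences between stages were wider than those between genotypes.

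The comparison of 40 with 39 somites was not used in choosing the genes. None of the 31 imprinted genes differed between the stages by limma with Benjamini-Hochberg adjustment over all genes, where 0.164% of all genes did. At an unadjusted p under 0.05, 12 were higher at 39 somites and 0 at 40. Of all 12809 genes 17.7% were higher at 39 somites and 498 genes at 40 at that level. The lowest values were -0.49 ± 0.12 for Peg10, -0.43 ± 0.10 for Nnat, -0.41 ± 0.11 for Snrpn and -0.39 ± 0.12 for Igf2 (log2, 40 minus 39 somites; limma, Benjamini-Hochberg adjusted p between 0.170 and 0.184). In all, 27 genes lay below 0 and 4 above, with a median of -0.21 against -0.10 for all genes. Of all 12809 genes 9230 lay below 0 and 3579 above. Median-ratio scaling brought the median of all genes to 0.00 and that of the imprinted genes to -0.11, with 22 below 0, 9 above and 5 higher at 39 somites at an unadjusted p under 0.05, where 6.65% of all genes were. The Y-linked gene Ddx3y was at 0.0498 and 28.3 TPM in knockout buds and 0.0130 and 30.2 TPM in the controls, so stage and sex cannot be told apart here.

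**Figure D4:**
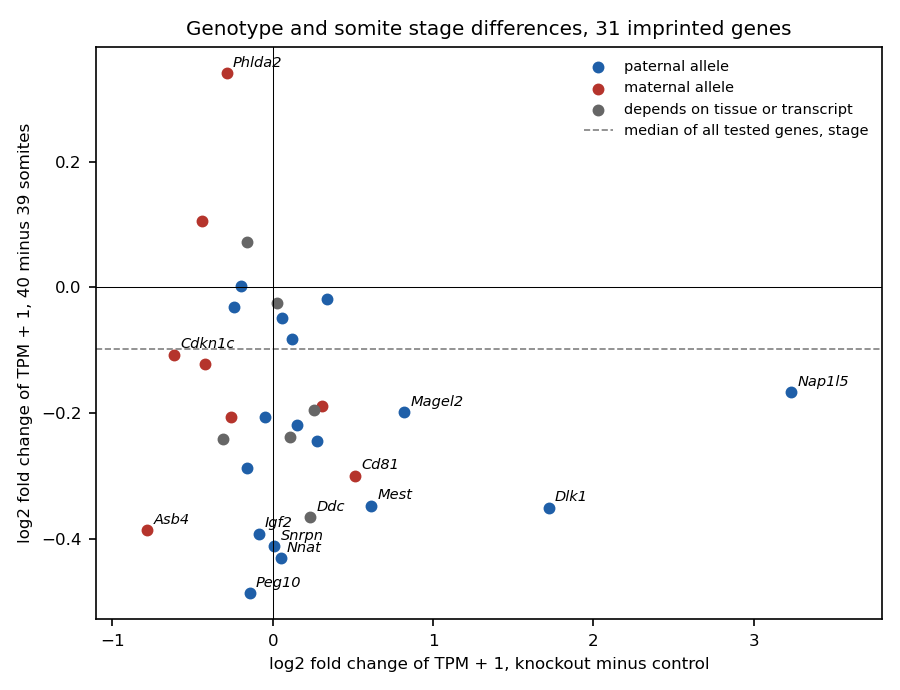
Each point is 1 of 31 imprinted genes, with the knockout minus control log2 fold change on the horizontal axis and the 40 minus 39 somites log2 fold change on the vertical axis; the dashed line is the median of all tested genes for stage. Most points, 27 of 31, lie below 0 on the stage axis, as do 9230 of all 12809 genes tested. Nap1l5 and Dlk1 lie far to the right.

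Genes listed as imprinting machinery, with Ctcf, Tet1, Tet2 and Tet3 among them, were read from the same fit. Of 23 such genes with values 21 were tested, 0 were called in either direction by limma with Benjamini-Hochberg adjustment, and 1 higher and 1 lower had an unadjusted p under 0.05, shares near the 6.78% and 6.89% of all genes. Zfp57, the zinc finger protein that holds methylation at imprinting control regions, stood at 68.4 and 69.4 TPM in knockout buds against 51.4 and 52.7 TPM in the controls. Its log2 fold change was 0.40 ± 0.10 (limma, Benjamini-Hochberg adjusted p = 0.162, and 0.0496 with somite stage in the model). Smchd1, a chromatin protein that acts at several imprinted clusters, stood at 61.2 and 62.0 TPM against 76.5 and 75.4 TPM (-0.30 ± 0.10). Trim28, the partner of ZFP57, stood at 370 and 459 TPM against 340 and 465 TPM. The maintenance methyltransferase gene Dnmt1 stood at 79.4 and 93.1 TPM against 84.4 and 92.1 TPM. The median of the 21 genes was 0.01.

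A list of 39 other imprinted genes had 36 with values and 25 tested. Klf14 was the 1 gene called higher and 0 were called lower by limma over all genes, while 4 higher and 2 lower had an unadjusted p under 0.05. Of all genes 0.812% and 0.492% were called higher and lower, and 6.78% and 6.89% had such an unadjusted p. The 4 were Klf14, Calcr, Jade1 and Osbpl5, of which Klf14 and Calcr entered the test only through their knockout values, so that the counts are no support for a change of the list. Jade1, which encodes a subunit of a histone acetyltransferase complex, stood at 13.7 and 15.1 TPM against 9.98 and 10.3 TPM. Osbpl5, a lipid transfer protein gene, stood at 8.45 and 10.6 TPM against 6.57 and 7.27 TPM. The 2 lower genes were Smoc1, a secreted calcium-binding BMP modulator, at 9.30 and 12.98 TPM against 16.1 and 18.5 TPM, and Pon3, given above with the Peg10 cluster. The median of the 25 genes was -0.02.

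Markers of other cells in the bud moved with genotype in part. The 8 ectoderm markers summed to 281 and 196 TPM in knockout buds against 410 and 274 TPM in the controls, with Krt8, Krt18 and Cldn6 separated and lower. The 6 blood markers summed to 7802 and 7407 TPM against 6318 and 7107 TPM, most of it Hbb-y. Of these Hba-a1 was separated, at 1832 and 1832.5 TPM against 783 and 1154 TPM (limma, Benjamini-Hochberg adjusted p = 0.110, and 0.0487 with somite stage in the model), and so was Alas2, at 18.4 and 20.1 TPM against 10.7 and 18.2 TPM. The other blood markers overlapped, among them Hba-a2, at 435 and 318 TPM in knockout buds against 198 and 911 TPM in the controls. The 5 macrophage markers summed to 5.58 and 4.52 TPM against 6.36 and 11.6 TPM, and the 5 Schwann cell markers to 9.93 and 7.78 TPM against 12.2 and 9.99 TPM. Endothelial markers followed stage, at 39.5 and 59.2 TPM in knockout buds and 27.4 and 59.2 TPM in the controls. The 5 mesenchyme markers summed to 608 and 688 TPM against 570 and 686 TPM, with Prrx1 and Prrx2 lower and Twist1 and Pdgfra higher in both knockouts. Of these Pdgfra passed over all genes, at 162 and 173 TPM against 79.5 and 84.0 TPM (log2 fold change 1.03 ± 0.11, limma, Benjamini-Hochberg adjusted p = 0.0165). The part of these cells in the differences of imprinted genes was not tested.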

How the data were processed

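RNA of 4 forelimb pairs was sequenced on a DNBseq instrument, per the labels' protocols. The authors deposited 1 table of TPM values for 35727 Ensembl genes, each column adding up to 1000000. Salmon 1.9.0 and mm10 are listed, per the submitters' processing notes. The transcript set, the step from transcripts to genes and the strand setting: not given in the sources used here. Columns were assigned by sample title, 1 of which lacks a letter. TPM keeps no depth, so no count test or counting interval is given.

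Identifiers were named by GENCODE M21 (mm10; 35493 of 35727 matched), and values of 45 repeated symbols were summed. Genes with at least 1 TPM in at least 2 libraries entered, on the log2(TPM + 1) scale, limma 3.58.1 under R 4.3.3 (eBayes with a trend, no covariates; somite stage as an added term for the stage comparison), with Benjamini-Hochberg adjustment over 12809 genes at 0.05. An exact permutation test of 2 against 2 cannot go below 0.333. The fit was tested on simulated data. Embryos are the replicates.

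The members and lists were chosen with earlier results of these data known. Fold changes are given for genes with an unadjusted p under 0.05 or a log2 fold change of at least 0.5 in size, and for 10 genes named whatever their result (H19 and Meg3 were not analysed here); the medians by parental origin were added after the data were seen. Alternatives were pseudocounts of 0.1 and 5, no filter, a filter at 5 TPM, median-ratio and quantile scaling, somite stage as a block, and each library left out. Promoter sequences are from RefSeq, GRCm38.p6.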

Additional observations from a re-analysis of the deposited data

Results flagged for a closer look

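Among the 31 tested imprinted genes 9 differed between knockout and control in opposite directions at the 2 somite stages, as did 30.8% of all tested genes, and in 2 of them the stages were at least 0.5 apart on the log2(TPM + 1) scale. For Ddc the knockout minus control difference was -0.02 at 40 somites and 0.49 at 39, a gap of 0.502. For Inpp5f it was -0.46 at 40 somites and 0.15 at 39, a gap of 0.607. Each stage holds 1 library per genotype, so neither gap was tested, and stage coincides with sex.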

How the results depend on the processing

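Nap1l5 was called higher in every alternative except with no filter on low values, where 0 imprinted genes were called. That fit is unreliable: it takes in genes listed at or near 0, its prior degrees of freedom were 0.646, and its 170 calls share 2 with the 167 of the filtered fit. At the filter of 5 TPM Nap1l5 entered only through its knockout values, so its call there is no support. The other alternatives reuse the same 4 libraries and genes chosen with this contrast known, so they are no independent support either. With median-ratio scaling, and likewise with quantile normalization, 1 imprinted gene was called higher. With somite stage as a block 533 genes were called, 4 imprinted genes among those higher and 2 among those lower. Leaving out 1 library gave 50 to 646 genes in all, 1 to 4 imprinted genes higher and 0 to 2 lower. The fits without a knockout library call most because limma then takes the spread almost wholly from the trend over all genes. Without knockout replicate 1, Cd81 and Magel2 were also called (limma, Benjamini-Hochberg adjusted p = 0.0423 and 0.011), and without knockout replicate 2, Asb4 and Cdkn1c (0.00329 and 0.0283). With control replicate 1 or control replicate 2 left out, Nap1l5 alone was called. The median log2 fold change of the imprinted genes ran from -0.074 to 0.171 with 1 library left out. Igf2 changed sign without knockout replicate 1 (0.19) and without control replicate 2 (0.02), with a lowest value of -0.37, and passed in none of these fits. Of 164 alternative values of single genes, 148 kept sign and side of the threshold. No stage difference of an imprinted gene was called in any alternative that kept all 4 libraries. With 2 embryos per genotype and unknown depth, failing the threshold does not show a lack of change.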
